A study of Drosophila melanogaster with 12 samples.

Results

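Glutathione transferases (GSTs) couple the tripeptide glutathione to reactive or foreign molecules, which makes these easier to clear. In flies the cytosolic enzymes fall into the classes D, E, S, T, O and Z (delta, epsilon, sigma, theta, omega and zeta), of which D and E are known for detoxification and lie mostly in tandem gene clusters. The cap'n'collar gene cnc encodes, in one of its isoforms, the transcription factor of the oxidative stress response, and Keap1 encodes the protein that holds this factor in check.

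The genes described here are those whose platform symbol reads GstD, GstE, GstS, GstT, GstO or GstZ followed by a number, together with Mgstl, Gclc, Gclm, Trxr1, Keap1 and cnc. That rule gave 40 genes of the 11982 with 1 symbol on the array, with 11 in class D, 13 in E, 1 in S, 4 in T, 3 in O, 2 in Z and 6 redox genes outside the classes. They were measured by 44 probe sets, and each gene was read from the probe set with the highest mean over the arrays. A gene with no probe set of its own symbol, such as GstE8, was not analysed here.

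RNA came from Kc167 cells, a Drosophila line of embryonic origin, on 12 Affymetrix arrays in 4 groups of 3. The control group is Kc167 cells alone, and the other groups received double-stranded RNA (dsRNA) against PTIP, against Pc and ph (Pc/ph), or against Pc, ph and PTIP (Pc/ph+PTIP). Wells of all 4 groups held 1000000 cells, serum was raised to 5% after 1 hour, and culture lasted 6 days. Treated wells received 15 µg of dsRNA. The labels do not state whether control cells received any dsRNA. PTIP belongs to a histone H3 lysine 4 methyltransferase complex and Pc and ph to Polycomb repressive complex 1, and the study set loss of PTIP beside loss of Polycomb proteins.

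Values are log2 RMA signals, and differences are log2 differences with the standard error (SE) of a limma fit in which the replicate number is a block, n = 3 arrays per group. A gene was called higher or lower at a Benjamini-Hochberg adjusted p under 0.05 over all 18769 probe sets. The replicate 1 arrays of all groups stand apart, with array medians of 5.62 to 5.77 against 5.83 to 5.88 for the others. Their upper quartiles differ more, at 8.65 to 8.95 against 9.62 to 9.74, and PTIP replicate 1 has the lowest. Differences are therefore also given within each replicate number. The highest of 7 Y-linked genes, absent from this female line, read 5.11 to 5.57 on the arrays, and that was taken as background. All 12 hemocyte markers exceeded it in control cells, as did 3 of 4 neuronal, 1 of 3 muscle, 0 of 4 fat body, 4 of 4 epithelial and 2 of 4 germline markers.

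In RNA from a whole culture, fewer cells of a type and less RNA per cell cannot be told apart. The labels do not say that replicates were separate cultures, so the p-values rest on the variation from array to array, which may be technical. Whether probes cross-hybridise between near-identical transferase genes was not tested.

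The depletion of the targeted genes was uneven. Within the replicate numbers, Ptip differed from control cells by -0.72, -0.19 and -0.44 in PTIP cells and by -1.01, -0.46 and 0.15 in Pc/ph+PTIP cells, and was called in neither (adjusted p = 0.296 and 0.339). Pc fell by 2.33 ± 0.20 in Pc/ph cells (adjusted p = 2.51e-04), and its difference of -0.74 ± 0.20 in Pc/ph+PTIP cells was not called (adjusted p = 0.0601). Of the 4 target genes listed, these 2 were read, and ph was not analysed here, so its depletion is not known. Every PTIP result below is therefore a result of the libraries labelled PTIP or Pc/ph+PTIP.

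Of the 40 genes, 32 exceeded the highest Y-linked value on every array. GstD6 and GstE14 exceeded it on none. GstE14 is known for its role in ecdysteroid synthesis in the steroid-producing gland. GstD4, GstE4, GstE5, GstS1, GstZ1 and GstZ2 exceeded it on some arrays only. Both class Z genes, relatives of the maleylacetoacetate isomerase of tyrosine breakdown, are in that last set, so class Z gave little to compare.

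In PTIP cells genes of class E and class T and the membrane-bound transferase Mgstl were lower than in control cells. Of the 40 genes, 9 fell and 1 rose, against 3.80% and 2.72% of all probe sets. The genes that fell were GstE1, GstE2, GstE6, GstE7, GstE9, GstE11, GstT2, GstT3 and Mgstl, and the gene that rose was GstD7. Class E had 6 of its 13 members lower, class T 2 of 4, class D 0 of 11 with 1 higher, and classes S, O and Z 0. The class medians were -0.45 for E, -0.44 for T, -0.12 for D and -0.09 for O, beside 0.03 over all probe sets. All probe sets include those near background, of which these 40 genes hold few. With a filter on a mean log2 value of 6, 10 of 31 genes fell and 1 rose, against 783 and 534 of 8626 probe sets.

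**Figure D1:**
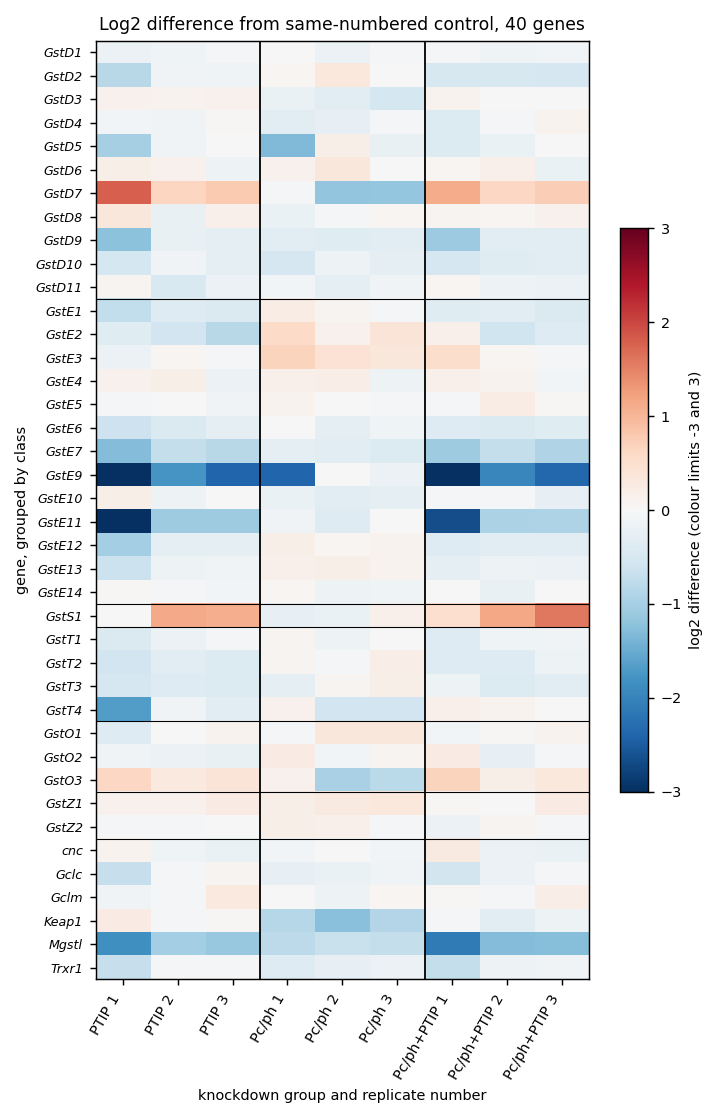
Log2 difference of each of the 40 genes (rows, grouped by class) from the control array of the same replicate number, for the 9 knockdown arrays (columns). Blue marks lower and red higher values, with the colour limits at -3 and 3. GstE9, GstE11 and Mgstl are blue in every array labelled PTIP or Pc/ph+PTIP, GstD7 is red there, and Keap1 is bluest in the Pc/ph arrays.

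GstE9 showed the largest fall of the 40 genes. It read 12.24, 12.11 and 12.04 in control replicates 1, 2 and 3 and 7.71, 10.34 and 9.66 in PTIP cells. All PTIP arrays lay below all control arrays, and replicate 1 was the lowest of them. The fitted difference was -2.89 ± 0.45 (adjusted p = 0.00568), a 7.43-fold lower level, and it was -4.53, -1.77 and -2.38 within the replicate numbers. A second GstE9 probe set read 4.54 to 5.00 on all 12 arrays, within the background, and the mean of both probe sets gave a difference of -1.51.

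GstE11 read 13.38, 12.11 and 11.89 in control cells and 9.62, 11.04 and 10.82 in PTIP cells. The groups did not overlap, but the difference was -3.75 in replicate 1 and -1.07 in replicates 2 and 3 each. Its fitted change of -1.96 ± 0.50 was called narrowly (adjusted p = 0.0444), and the call held in 2 of the 12 fits that each left out 1 array. Without PTIP replicate 1 or control replicate 1 it stood outside the threshold. With replicates 2 and 3 only, which leaves out the replicate 1 arrays of all groups, it was called.

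Mgstl encodes a microsomal glutathione transferase, a membrane protein of a family separate from the cytosolic enzymes. It read 12.14, 11.65 and 11.70 in control cells and 10.30, 10.64 and 10.57 in PTIP cells. The arrays of the groups did not overlap, and Mgstl fell by 1.33 ± 0.17 (adjusted p = 0.00227), or 2.51-fold. Its second probe set read 5.23 to 5.62 on all arrays, at or just above background, and the mean of both gave -0.61.

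Not all genes of the class E tandem cluster were called. Along the chromosome the 9 cluster genes measured run GstE10, GstE1, GstE2, GstE3, GstE4, GstE5, GstE6, GstE7 and GstE9, with only GstE8 of the annotated protein-coding genes in between. GstE1 (-0.52 ± 0.10), GstE2 (-0.59 ± 0.14), GstE6 (-0.45 ± 0.09), GstE7 (-0.94 ± 0.12) and GstE9 fell in PTIP cells. Between them GstE3 differed by -0.06 ± 0.13, with a 95% interval from -0.35 to 0.23, and GstE10 at the end of the cluster by 0.01. GstE4 and GstE5 lay near background on all arrays. GstE11 lies 12 genes beyond GstE9. GstE12 (-0.53 ± 0.15, adjusted p = 0.0664) and GstE13 (-0.31 ± 0.11, adjusted p = 0.138), which lie elsewhere on the same arm, were not called.

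**Figure D2:**
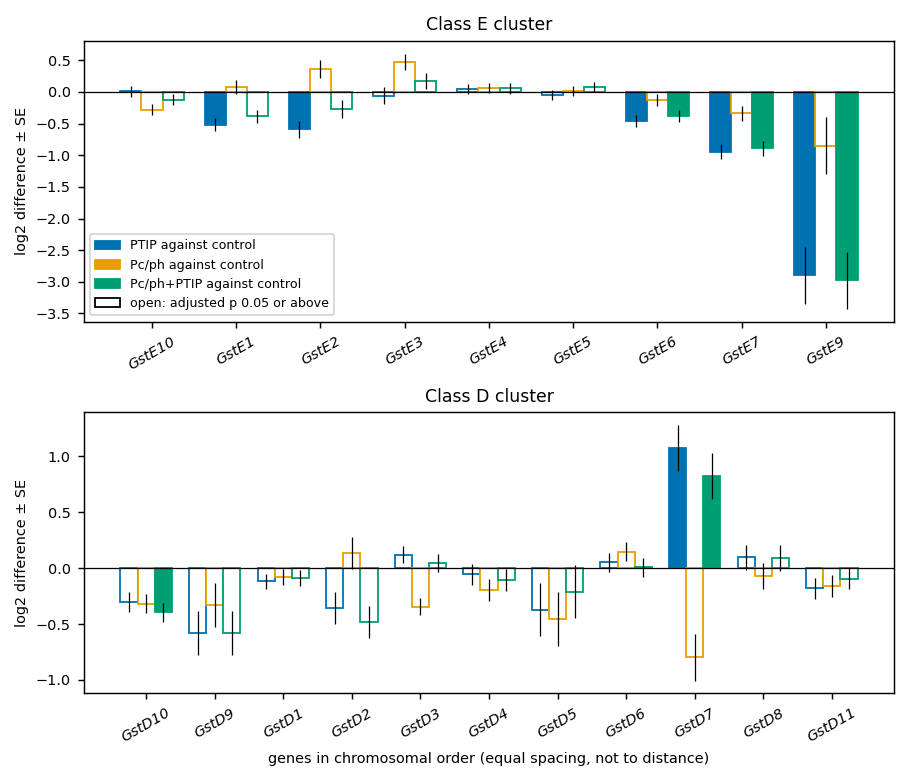
Fitted log2 difference from control (bars, ± SE, n = 3 arrays per group) for the genes of the class E cluster (top) and the class D cluster (bottom) in chromosomal order, for PTIP, Pc/ph and Pc/ph+PTIP cells. Filled bars are called and open bars are not. In the E cluster GstE6, GstE7 and GstE9 are called in both PTIP groups and GstE1 and GstE2 in PTIP cells, and GstE1 at -0.38 in Pc/ph+PTIP cells is not called, and in the D cluster GstD7 is higher in both PTIP groups and GstD10 lower in Pc/ph+PTIP cells.

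GstE7 held up best within the cluster. It read 11.92, 11.61 and 11.66 in control cells and 10.62, 10.91 and 10.82 in PTIP cells, a difference called also without the replicate block (adjusted p = 0.00221 with it and 0.0337 without). GstE6, an enzyme with a very bright probe set, read 14.10, 13.84 and 13.74 against 13.48, 13.41 and 13.43. The brightest probe set of an array read 14.71 to 15.04, so differences of GstE6, and of GstD1 at 13.91 to 14.29, lie close to the top of the scale.

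In class T, GstT2 fell by 0.45 ± 0.09 (adjusted p = 0.0141) and GstT3 by 0.44 ± 0.11 (adjusted p = 0.0444). The GstT3 call, like that of GstE11, held in 2 of the 12 fits without 1 array, and that of GstT2 in 9. GstT2 read 11.51, 11.88 and 11.75 in control cells and 10.92, 11.53 and 11.34 in PTIP cells. These ranges overlap because replicate 1 runs lower in both groups, and within the replicate numbers GstT2 was lower in 3 of 3. Its chromosomal neighbour GstT1 differed by -0.21 ± 0.11 (adjusted p = 0.339). GstT4 differed by -1.67 in replicate 1 and by -0.10 and -0.33 in the others, and was not called (adjusted p = 0.323).

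GstD7 was the one gene called of the 11 in the class D cluster. It read 7.77, 9.04 and 9.11 in control cells and 9.56, 9.69 and 9.88 in PTIP cells, with no overlap. The rise was 1.07 ± 0.21 (adjusted p = 0.0152), or 2.10-fold. GstD1, the most studied class D enzyme and a common reporter of the oxidative stress response, differed by -0.12 ± 0.07, with a 95% interval from -0.28 to 0.04. GstD10 (-0.30 ± 0.09, adjusted p = 0.0690), GstD9 (-0.58 ± 0.20, adjusted p = 0.127) and GstD2 (-0.36 ± 0.14, adjusted p = 0.213) were not called. Their PTIP arrays nonetheless all lay below their control arrays, and for GstD9 the differences were -1.23, -0.21 and -0.30 in the 3 replicate numbers.

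The enzymes of glutathione and thioredoxin supply were not called. Gclc and Gclm, the catalytic and modifier subunits of the enzyme that limits glutathione synthesis, differed by -0.21 ± 0.13 and 0.05 ± 0.09. Trxr1, the reductase that keeps thioredoxin and, in flies, also glutathione reduced, differed by -0.25 ± 0.13. Within the replicate numbers Gclc differed by -0.69, -0.03 and 0.08 and Trxr1 by -0.68, -0.03 and -0.04, so replicate 1 held nearly all of either difference. The regulators cnc (-0.08 ± 0.10) and Keap1 (0.07 ± 0.09) were not called either. A second cnc probe set read 3.90 to 4.85, within the background.

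Replicate 1 showed the largest difference for 9 of the 10 genes called in PTIP cells, GstE2 being the exception, and all 10 had the same sign in each replicate number. The median size of the difference was 0.41, 0.16 and 0.19 in replicates 1, 2 and 3 over the 40 genes and 0.19, 0.11 and 0.13 over all probe sets. Ptip itself was lowest in replicate 1, and the part of its depletion in these sizes was not tested. PTIP replicate 1 also had an upper quartile of 8.65 over all probe sets, against 8.88 in control replicate 1. The part of that lower reading of bright probe sets was not tested either. Germline markers also moved with the group, with a log2 summed signal of 10.49 to 10.59 in control and 9.61 to 10.39 in PTIP cells. Of the 4 markers, 2 exceeded background in both groups and vas and osk did not in control cells. Their part in the result was not tested.

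Without the replicate block 2 of the 40 genes were called in PTIP cells, GstE7 and Mgstl, against 10 with it. The share of all probe sets called went from 6.52% with the block to 0.272% without it. Of the 10 calls, 6 were kept without PTIP replicate 3 and 5 without control replicate 1, 2 or 3, and leaving out control replicate 1 added 1 other call. The same fits called 475, 568, 731 and 563 of all probe sets, against 1224 with all arrays. GstD7, GstE7, GstE9 and Mgstl kept their call without any single array. With replicates 2 and 3 only, 14 of the 40 genes were called, all 10 among them, and 2566 of all probe sets.

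**Figure D3:**
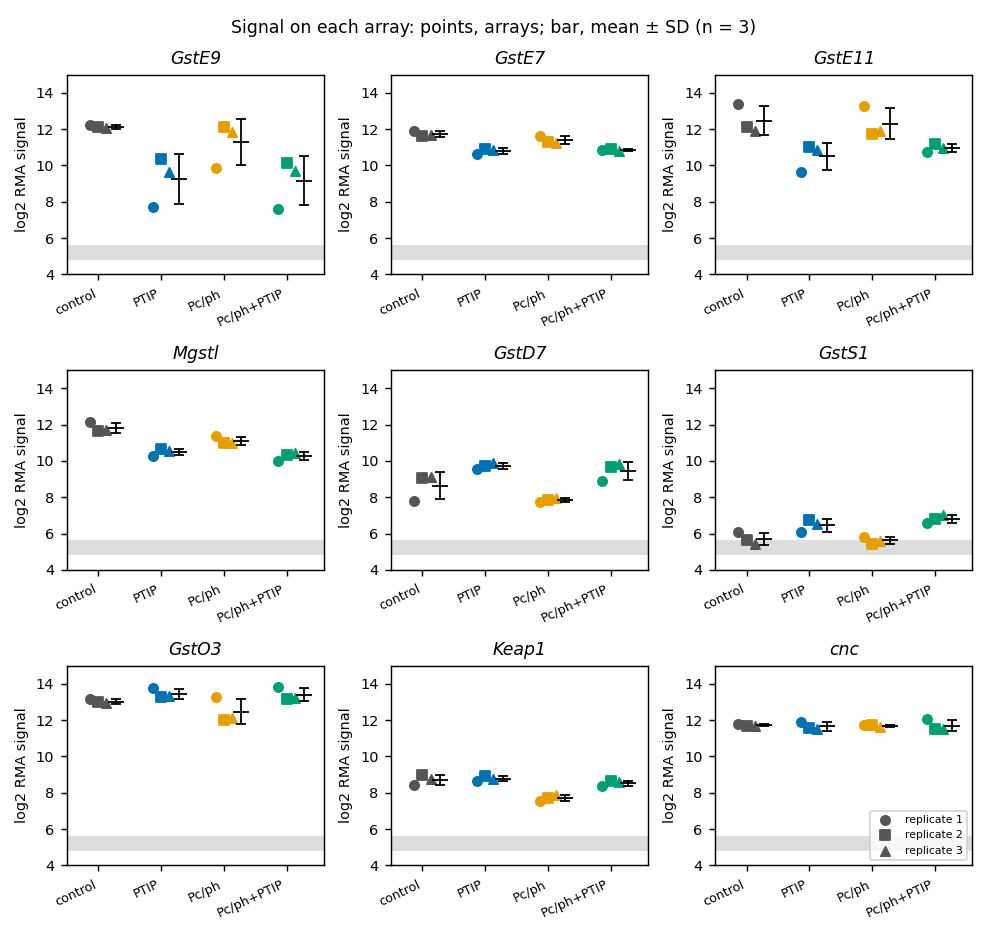
Log2 RMA signal of 9 genes on each of the 12 arrays. Circles, squares and triangles are replicates 1, 2 and 3, black bars are the mean ± SD of the 3 arrays, and the grey band runs from the lowest array median of the Y-linked genes (4.85) to their highest value (5.57). GstE9 falls to 7.71 and 7.62 in replicate 1 of PTIP and Pc/ph+PTIP cells, and cnc stays between 11.49 and 12.06 throughout.

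In Pc/ph cells 1 of the 40 genes was called, Keap1, which fell. Of all probe sets 1.53% were called in this comparison, 0.709% higher and 0.821% lower. All 4 epithelial markers exceeded background in both groups, and their log2 summed signal was 11.20 to 12.04 in control and 12.14 to 12.45 in Pc/ph cells, without overlap. Their part in the result was not tested. Keap1 read 8.41, 8.96 and 8.74 in control cells and 7.56, 7.70 and 7.86 in Pc/ph cells, with no overlap. The difference was -0.997 ± 0.09 (adjusted p = 3.21e-04), which is 50.1% of the control level. The call was kept without the block (adjusted p = 0.0422) and without any single array.

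Known targets of the factor that Keap1 restrains were not called. GstD1 differed by -0.08 ± 0.07 with a 95% interval from -0.24 to 0.08, Gclc by -0.18 ± 0.13 and Trxr1 by -0.26 ± 0.13. Mgstl differed by -0.78, -0.66 and -0.72 within the replicate numbers, without passing the threshold (-0.72 ± 0.17, adjusted p = 0.0820). Its Pc/ph arrays read 11.36, 10.99 and 10.97, all below the control arrays. The largest rise of the 40 genes was that of GstE3, at 0.48 ± 0.13 (adjusted p = 0.132). GstE2 differed by 0.36 ± 0.14 (adjusted p = 0.348). Neither was called, though the Pc/ph arrays of both lay above all control arrays. Of the 40 genes, 26 differed by less than 0, beside 9454 of all 18769 probe sets. The class E median was 0.02 and the class D median -0.19, beside -0.00 over all probe sets.

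Some genes split by replicate in Pc/ph cells. GstE9 read 9.85 in replicate 1 and 12.13 and 11.86 in replicates 2 and 3, so it differed from control by -2.39 in the first and by 0.02 and -0.17 in the others. GstO3, a class O enzyme, read 13.28, 12.01 and 12.11, which is 0.12, -0.97 and -0.80 from control. GstD7 likewise differed by -0.04, -1.19 and -1.17. None of these was called (adjusted p = 0.629, 0.196 and 0.116). The count of called genes was 5 without Pc/ph replicate 1, 4 without PTIP replicate 1, 3 without Pc/ph+PTIP replicate 1 and 2 without control replicate 1. The same fits called 376, 477, 339 and 203 of all probe sets, against 287 with all arrays.

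With all 3 targets, GstE6, GstE7 and GstE9 of the class E cluster and Mgstl were lower than in control cells. Against control, 5 of the 40 genes fell and 2 rose in Pc/ph+PTIP cells, against 2.86% and 2.71% of all probe sets. This comparison shares its control arrays with the others against control. GstE6 (-0.39 ± 0.09), GstE7 (-0.89 ± 0.12), GstE9 (-2.98 ± 0.45), GstD10 (-0.40 ± 0.09) and Mgstl (-1.57 ± 0.17) fell, and GstD7 (0.82 ± 0.21) and GstS1 (1.08 ± 0.22) rose. GstE1 differed by -0.38 ± 0.10, about as much as GstE6, with no overlap, and narrowly missed the threshold (adjusted p = 0.0600). Germline markers summed to 9.92 to 10.29 on the log2 scale in Pc/ph+PTIP cells, below the 10.49 to 10.59 of control cells, and their part in these differences was not tested.

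GstS1, the single class S gene and an abundant enzyme of flight muscle, read 6.09, 5.62 and 5.43 in control cells and 6.58, 6.79 and 7.01 in Pc/ph+PTIP cells. The groups did not overlap, and GstS1 exceeded background on 2 of the 3 control arrays, control replicate 3 lying below the highest Y-linked value of its array, 5.49. In PTIP cells it read 6.07, 6.76 and 6.52, a difference of -0.02 in replicate 1 and of 1.14 and 1.09 in the others (0.73 ± 0.22, adjusted p = 0.0779). The log2 summed signal of 3 muscle markers was 6.79 to 7.69 in control and 6.33 to 7.28 in Pc/ph+PTIP cells, with 1 and 0 of them above background.

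GstE9 read 7.62, 10.14 and 9.68 in Pc/ph+PTIP cells and Mgstl 10.01, 10.35 and 10.41, all below every control array. Keap1 read 8.38, 8.64 and 8.58 there, and its difference from control of -0.17 ± 0.09 was not called (adjusted p = 0.399). GstE11 differed by -2.66, -0.94 and -0.92 and was not called (adjusted p = 0.130). Without the block 2 of the 40 genes were called, against 7. The share of all probe sets called went from 5.57% with the block to 0.272% without it. Leaving out 1 control array left 3 or 4 calls, leaving out 1 Pc/ph+PTIP array likewise left 3 or 4, and leaving out PTIP replicate 1 gave 13. The same fits called 487 to 640, 377 to 467 and 1563 of all probe sets, against 1046 with all arrays. GstE7, GstE9 and Mgstl kept their call without any single array, whereas GstD7 kept it in 2 of the 12 fits and GstE6 in 4.

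The comparison of Pc/ph+PTIP with Pc/ph cells asks what PTIP dsRNA does where Pc and ph are targeted too, and it shares no array with PTIP against control. Pc itself was higher by 1.59 ± 0.20 in Pc/ph+PTIP than in Pc/ph cells (adjusted p = 0.00208), so a change in PTIP and a change in Pc level cannot be told apart here. The epithelial markers summed to 11.80 to 11.91 in Pc/ph+PTIP cells, below all Pc/ph arrays, and their part was not tested. Here 7 of the 40 genes fell and 5 rose, against 2.61% and 2.90% of all probe sets (5.50% in either direction). With the filter on a mean log2 value of 6, these counts were 7 and 5 of 31 genes, against 522 and 544 of 8626 probe sets. GstE1, GstE2, GstE7, GstE9, GstT2, Mgstl and GstD2 fell, and GstD3, GstD7, GstS1, GstO3 and Keap1 rose. Of the 9 genes lower in PTIP cells, 6 were lower here (66.7%), which is 85.7% of the 7. The same overlap over all probe sets was not counted. The 2 differences had a Pearson correlation of 0.713 over all probe sets and 0.886 over the 40 genes, so they went together across the array too. By rank the correlation over the 40 genes was lower (Spearman 0.734), and 30 of the 40 had the same sign. Neither of these 2 measures was taken over all probe sets. GstD7 rose in both.

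GstD7 read 7.74, 7.85 and 7.94 in Pc/ph cells and 8.89, 9.65 and 9.84 in Pc/ph+PTIP cells. The 2 groups were well apart, with a rise of 1.62 ± 0.21 (adjusted p = 0.00229), or 3.07-fold. Keap1 rose by 0.83 ± 0.09 (adjusted p = 8.04e-04) and GstO3 by 0.94 ± 0.17 (adjusted p = 0.0110). GstO3 differed by 0.55, 1.16 and 1.12 within the replicate numbers, and its neighbours GstO1 and GstO2 by -0.20 and -0.10, which were not called. A second GstO2 probe set, also well above background, went the other way, by 0.46 ± 0.14 (adjusted p = 0.0861). It was not called, but its groups did not overlap, so the direction of GstO2 depends on the probe set.

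GstE9 differed by -2.23, -1.99 and -2.18 within the 3 replicate numbers, a closer range than against control (fitted -2.13 ± 0.45, adjusted p = 0.0237). Its groups overlap, because Pc/ph replicate 1 at 9.85 lies below Pc/ph+PTIP replicate 2 at 10.14. Mgstl differed by -1.34, -0.64 and -0.56. GstD2 (-0.62 ± 0.14, adjusted p = 0.0360) and GstD3 (0.39 ± 0.08, adjusted p = 0.0181), next to each other in the class D cluster, went opposite ways. The class medians were -0.34 for E, -0.24 for T, -0.10 for O and 0.06 for D, beside 0.01 over all probe sets.

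**Figure D4:**
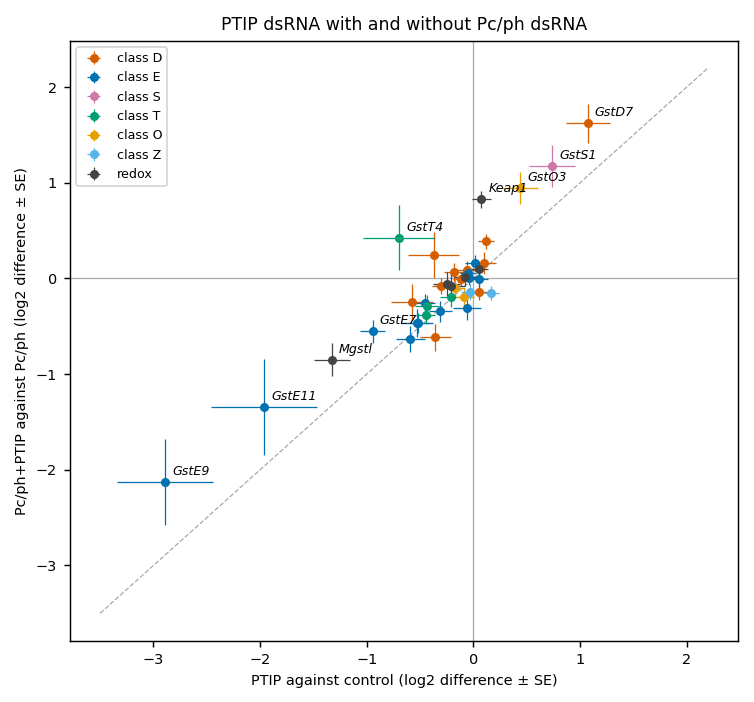
Log2 difference of each of the 40 genes for PTIP dsRNA alone (horizontal axis, PTIP against control) and on top of Pc/ph dsRNA (vertical axis, Pc/ph+PTIP against Pc/ph), with SE bars (n = 3 arrays per group) and colours by class. The dashed line marks equal differences. GstE9 lies at -2.89 and -2.13, GstD7 at 1.07 and 1.62, and Keap1 at 0.07 and 0.83.

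Without the block 0 of the 40 genes were called in this comparison by limma, against 12. The share of all probe sets called went from 5.50% with the block to 0.298% without it. Leaving out Pc/ph replicate 2 left 3 calls and Pc/ph replicate 3 left 2, and leaving out Pc/ph+PTIP replicate 1, 2 or 3 left 5, 2 or 3. The same fits called 464, 407, 653, 333 and 336 of all probe sets, against 1033 with all arrays. GstD7 and Keap1 kept their call without any single array.

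The interaction, the difference of Pc/ph+PTIP from Pc/ph less the difference of PTIP from control, tests whether these 2 differences are unequal. Pc was higher in Pc/ph+PTIP than in Pc/ph cells, so a changed PTIP effect and a changed Pc level cannot be told apart in it. Limma called 0 of the 40 genes, with 0.186% of all probe sets called (0.107% higher and 0.0799% lower, and 0.00533% without the block). GstD3, GstE7, GstT4, GstZ1 and Keap1 had an unadjusted p under 0.05. How many of all probe sets passed that unadjusted threshold was not counted, so no result is drawn from these 5. Keap1 came closest, at 0.75 ± 0.13 (adjusted p = 0.0589), with 0.59, 0.99 and 0.69 in the replicate numbers, and it was called without control replicate 1 (0.83, adjusted p = 0.0409). For GstE9 the interaction was 0.76 ± 0.64, with a 95% interval from -0.66 to 2.18. For GstD7 it was 0.55 ± 0.29, from -0.10 to 1.20.

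Between Pc/ph+PTIP and PTIP cells limma called 0 of the 40 genes, with 0.0320% of all probe sets called, 0.0266% higher and 0.00533% lower. GstE2, GstT4 and Keap1 had an unadjusted p under 0.05, a threshold at which all probe sets were not counted. Without the block 0 of the 40 genes were called. Pc read 7.24, 8.86 and 8.98 in Pc/ph+PTIP and 7.72, 9.77 and 9.63 in PTIP cells, against 6.18, 6.96 and 7.18 in Pc/ph cells. The comparison therefore cannot show what the Pc depletion of Pc/ph cells would do in PTIP cells. GstE9 differed by -0.08 with a 95% interval from -1.09 to 0.92, and Mgstl by -0.24 with an interval from -0.62 to 0.14. Keap1 read 8.64, 8.91 and 8.77 in PTIP cells, above all 3 Pc/ph+PTIP arrays, with same-numbered differences of -0.26, -0.27 and -0.19.

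**Figure D5:**
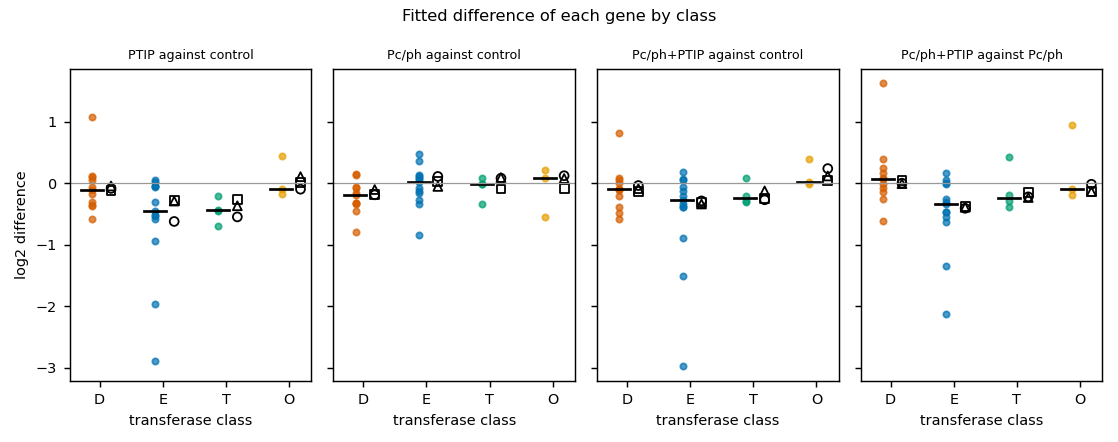
Fitted log2 difference of each gene of classes D, E, T and O (coloured points, n = 11, 13, 4 and 3 genes) in 4 comparisons, with the class median (black line). Open circles, squares and triangles are the class median of the differences within replicates 1, 2 and 3. In Pc/ph+PTIP against Pc/ph the class E medians within replicates lie between -0.41 and -0.38.

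Other redox genes were read from lists of known function. In PTIP cells 4 of 10 genes of superoxide and peroxide metabolism fell and 0 rose, against 3.80% and 2.72% of all probe sets, at a list median of -0.12. The immune-regulated catalase Irc fell by 1.60 ± 0.27 (adjusted p = 0.00839), catalase Cat by 0.92 ± 0.20, the dual oxidase Duox, which makes hydrogen peroxide, by 0.75 ± 0.15, and the glutathione peroxidase homologue Gtpx by 0.43 ± 0.08. Irc read 11.90, 12.13 and 12.12 in control cells and 9.46, 11.15 and 10.75 in PTIP cells, without overlap. In Pc/ph+PTIP against Pc/ph Irc fell by 1.65 ± 0.27, and in Pc/ph cells Duox fell by 0.97 ± 0.15. Duox and Gtpx fell in Pc/ph+PTIP cells against control.

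From a list of 11 symbols around NADPH, the reducing power behind glutathione and thioredoxin, 5 genes were read. Not all of the 5 make NADPH themselves, and the listed Zw and Pgd were not analysed here. Of the 5, Men and Idh fell in PTIP cells, against 3.80% of all probe sets, at a list median of -0.39. The malic enzyme Men fell by 1.06 ± 0.15 (adjusted p = 0.00347) and the NADP-dependent isocitrate dehydrogenase Idh by 0.42 ± 0.10. Both fell in Pc/ph+PTIP cells against control too, and Men fell by 0.97 ± 0.15 against Pc/ph.

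Among 11 partners of cnc and Keap1, 2 rose and 1 fell in PTIP cells, against 2.72% and 3.80% of all probe sets, at a list median of -0.00. The autophagy adaptor ref(2)P fell by 0.82 ± 0.09 (adjusted p = 0.00147), and it fell in Pc/ph+PTIP cells against control and against Pc/ph cells. Roc1a, a RING subunit of cullin ubiquitin ligases, rose by 0.67 ± 0.14, and the stress-response gene Sesn by 0.76 ± 0.19. The tumour suppressor p53 rose by 0.52 ± 0.11 in Pc/ph+PTIP against Pc/ph cells. In Pc/ph cells limma called 0 of the 11, with 2 at an unadjusted p under 0.05, a threshold at which all probe sets were not counted. Cul3, the ligase scaffold that Keap1 serves, differed there by -0.03 ± 0.10.

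Of 9 genes of glutathione supply and glutaredoxins, Ggt-1, a gamma-glutamyl transpeptidase, was the 1 called in PTIP cells and rose by 0.44 ± 0.08, against 2.72% of all probe sets called higher. Cbs, which makes cystathionine on the way from homocysteine to cysteine, read 12.94, 11.99 and 11.75 in control cells and 9.38, 8.88 and 8.78 in Pc/ph cells. In Pc/ph+PTIP cells it read 11.30, 11.72 and 11.75. Its interaction was called at 2.51 ± 0.36 (adjusted p = 0.0257), where a changed PTIP effect and a changed Pc level cannot be told apart. Of 9 peroxiredoxin and thioredoxin genes 1 was called in PTIP cells, Txl, which rose by 0.30 ± 0.07, against 2.72% of all probe sets called higher. Of 6 other genes of the transferase fold, among them the eye pigment enzyme se beside GstO2, limma called 0 in each of the 6 comparisons. An unadjusted p under 0.05 was seen for 1 in PTIP cells and 0 in the others, and all probe sets were not counted at that threshold.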

How the data were processed

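Per the labels, the authors deposited log2 expression values made with RMA and used limma (no versions stated). The 18952 probe sets include 183 array controls, which were left out. Probe sets were named from the platform annotation (13647 with 1 symbol, 402 with several, 4720 with none), and all 40 genes were matched by gene number to the RefSeq table (Release 6 plus ISO1 MT), used for gene order only.

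Limma 3.58.1 in R 4.3.3 fitted 4 group means with the replicate number as a block on all 12 arrays, over 18769 probe sets and 6 comparisons, with Benjamini-Hochberg adjustment and 95% intervals. Same-numbered arrays deviated together (correlations of 0.489 to 0.880 over 18 pairs), and the first principal component held 68.1% of the variance. The number of arrays limits the precision. The step was tested on simulated data. Genes named with values were all those past the threshold in any comparison, the 6 redox genes, and from each further list up to 3 called genes in each direction per comparison. The uncalled GstD1, GstD9, GstE3, GstE10, GstE12, GstE13, GstT1, GstT4, GstO1, GstO2 and Cul3 were named after their values were seen.

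The genes, lists and tests were chosen with earlier results of these data known. A planned promoter motif search was not run because no sequence was used here. Alternatives were no block, replicates 2 and 3 only, quantile and cyclic loess normalization, a filter on a mean log2 value of 6, a variance trend, the mean of a gene's probe sets, and leaving out each array.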

Additional observations from a re-analysis of the deposited data

How the results depend on the processing

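No direction of a called gene reversed under any alternative run. Without the replicate block the count of called genes was 2 in PTIP against control, 2 in Pc/ph+PTIP against control and 0 in Pc/ph+PTIP against Pc/ph. That fit called 0.272%, 0.272% and 0.298% of all probe sets. With replicates 2 and 3 only the count was 14 in PTIP against control, with all 10 main calls among them. It was 10 in Pc/ph against control, 14 in Pc/ph+PTIP against control and 19 in Pc/ph+PTIP against Pc/ph. It was 4 in the interaction (GstD7 at 1.14, GstT4 at 0.84, GstO3 at 0.80 and Keap1 at 0.84). That fit called 2566, 1066, 2194, 2925 and 261 of all probe sets, in the same order. Quantile normalization gave 3 in Pc/ph against control and 11 in Pc/ph+PTIP against control, and cyclic loess gave 3 in Pc/ph against control. Of all probe sets these fits called 380, 1537 and 374, against 287, 1046 and 287 in the main fit. Leaving out 1 array gave 5 to 12 in PTIP against control, 1 to 5 in Pc/ph against control, 3 to 13 in Pc/ph+PTIP against control, 2 to 15 in Pc/ph+PTIP against Pc/ph, 0 in Pc/ph+PTIP against PTIP and 0 to 1 in the interaction. In the same order, those fits called 475 to 1699, 134 to 477, 377 to 1563, 333 to 1561, 4 to 17 and 9 to 80 of all probe sets. The count over all probe sets thus moved as well. The cause of these differences was not tested. Over all probe sets, 1224 were called in PTIP against control, with 51 called without the block and 2566 with replicates 2 and 3 only. Quantile normalization turned the split of 511 higher and 713 lower there to 971 and 816. Signal near background limits GstD6, GstE14, GstD4, GstE4, GstE5, GstS1, GstZ1 and GstZ2.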
